A study of Mus musculus with 22 samples.

Results

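The COPII coat is represented here by 10 mouse genes, Sar1a, Sar1b, Sec23a, Sec23b, Sec24a, Sec24b, Sec24c, Sec24d, Sec13 and Sec31a, found by their symbols among the 19781 genes of both ESC tables and the 19057 genes of the iPSC table. All 10 were present in every table, with an adjusted p in each, so none was lost to a filter on low values. Messenger RNA was sequenced from mouse pluripotent stem cells and from osteoblast cultures grown from them. ESC are embryonic stem cells of a Col2.3GFP line at passage 20 to 30 (3 samples), and iPSC are induced pluripotent stem cells, somatic cells returned to pluripotency, of a Col2.3GFP line at passage 10 to 20 (2 samples). ESC-OB (3 samples) and iPSC-OB (2 samples) are the osteoblast cultures grown from these lines for 35 to 40 days. They passed through 6 days as embryoid bodies without the cytokine LIF and the kinase inhibitors PD0325901 and CHIR99021 (which block MEK and GSK3), were given retinoic acid at 0.1 µM on day 3, washed out on day 5, and then entered osteogenic medium. Sorted ESC-OB GFP+ (3 samples) are the GFP-positive cells of such ESC cultures at 35 to 40 days. All 5 groups carry Col2.3GFP, a reporter that makes osteoblast-lineage cells fluoresce green from part of a collagen gene's promoter. Sorting on it selects cells in which that promoter part is active, and the unsorted cultures are mixtures. The labels name a line for each cell source and do not say whether it is a single clone. The 9 samples of calvarial and bone cells were not analysed here.

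COPII is the protein coat that shapes transport vesicles at exit sites of the endoplasmic reticulum. The GTPase Sar1 inserts into the membrane and recruits the inner coat, a pair of Sec23, which stimulates the GTPase, and Sec24, which holds the binding sites for cargo, and then the outer cage of Sec13 and Sec31 assembles. Osteoblasts secrete large amounts of type I procollagen, a rigid trimer that needs the coat and large-cargo factors such as Tango1 (gene Mia3) to leave the endoplasmic reticulum. Inherited loss of SEC23A or SEC24D function in people gives skeletal disorders, loss of SEC23B gives an anaemia, and loss of SAR1B gives a defect of chylomicron secretion. Creb3l1 and Creb3l2 are membrane-bound transcription factors of osteoblasts and chondrocytes whose cleaved forms are known to act on collagen and secretory genes, Sec23a among them.

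The promoters of the coat genes were compared because the members did not move alike. RefSeq windows (GRCm38.p6) from 250 bases before to 50 bases after each annotated start were found for all 10 genes, as 12 windows. The letters TGACGTGG, known as the unfolded protein response element and bound by Atf6 and related factors, were searched on both strands. They occurred in 2 of the 12 windows, those of Sec23a and Sec24d and of no other member, against 0.676% of all 32851 windows. The shorter core TGACGT, which TGACGTGG contains, was in 6 of the 12 windows (1 each of Sar1a, Sec23a, Sec23b, Sec24a, Sec24c and Sec24d), against 7.51% of all windows. The background windows were not matched to the members for base content. The windows of 30 bases around the match are shown for both genes with the full element, then for a paralogue of each with the core alone. Capitals mark the matched letters.
Sec24d: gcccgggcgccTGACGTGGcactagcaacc
Sec23a: ctcctccccttTGACGTGGcagaggcggca
Sec23b: ggcgccgcgaaaTGACGTttcggagcggtg
Sec24c: gcctgggagcctTGACGTtaggaacgaagt
The Sec24d window is chr3:123267459-123267488 on the plus strand, with the element 26 to 19 bases before the RefSeq start. The Sec23a window is chr12:59011993-59012022 on the minus strand, with the element 7 to 14 bases after the start, in the first exon. The Sec23b window is chr2:144556208-144556237 on the plus strand, 9 to 4 bases before the start at the core, and the Sec24c window is chr14:20674338-20674367 on the plus strand, 30 to 35 bases after it. The full cAMP response element TGACGTCA (1.79% of all windows), the ER stress response element (0.119%) and the ER stress response element II (0.0365%) matched no member's window. A match describes letters only, and these motifs were chosen with the genes' changes already known.

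Only the authors' own comparisons were used, with no values per sample, so each value below is a fold change with the standard error (SE) of the authors' fit, and individual samples cannot be shown. A gene is called higher or lower where its deposited adjusted p is under 0.05, and positive log2 changes are higher after differentiation, a direction read from the pluripotency genes Pou5f1, Nanog and Esrrb. Levels were estimated from the deposited base means and folds as CPM (reads per 1000000) and, to compare genes, as CPM per kb of exon. They carry no error, and their ratios lie above the deposited folds by a constant 1.07 (ESC-OB) or 1.12 (sorted and iPSC-OB), since one is scaled to totals and the other to size factors. Depth, read from the lowest base means, ranged over 4.49 to 19.5 M reads in ESC libraries, 6.72 to 11.5 M in ESC-OB, 22.4 to 30.1 M in the sorted cells, 10.4 to 13.0 M in iPSC and 10.1 to 17.7 M in iPSC-OB. That reading found 3 libraries on the iPSC side where the labels name 2, which would move iPSC and iPSC-OB levels by factors of 0.923 to 1.198. The summed level of 5 pluripotency markers went from 3704 CPM in ESC to 33.6 in ESC-OB and 21.2 in the sorted cells, and from 2060 in iPSC to 57.1 in iPSC-OB. The 9 osteoblast markers summed to 322, 5249 and 11218 CPM in ESC, ESC-OB and sorted cells and to 754 and 2633 in iPSC and iPSC-OB, although the defining osteoblast factor Sp7 was at only 0.737 CPM in ESC-OB and 0.648 in iPSC-OB. The collagen genes Col1a1 and Col1a2 made up most of these sums in ESC-OB, sorted cells and iPSC-OB. Of the 9 markers, 6 were higher, 1 lower and 2 not passed in ESC-OB. In the sorted cells 8 were higher and 1 lower, and in iPSC-OB 7 were higher, 1 lower and 1 not passed. Markers of other cells moved in the same comparisons. Those of airway and secretory epithelium (9 fixed) summed to 107, 2450 and 5243 CPM along the ESC series and 506 and 1268 along the iPSC series, and those of liver and yolk sac (6) to 5.29, 518 and 843 and to 10.3 and 2674. Cardiac markers (4) summed to 8.16, 1314 and 305 and to 17.6 and 126 CPM, macrophage markers (5) to 17.1, 93.8 and 103 and to 33.7 and 96.3, while plasma and exocrine cell markers were below 1 CPM in every group. The part of these other cells in the results on the coat was not tested, and in bulk RNA a change in the number of cells of a type cannot be told apart from a change in RNA per cell.

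Differentiation moved the coat genes unevenly, and Sec24d moved most. In ESC-OB 6 members were higher (Sec24d, Sar1a, Sec24a, Sar1b, Sec24c and Sec24b), Sec23b was lower, and Sec23a, Sec13 and Sec31a did not pass the test in the authors' deposited table. In iPSC-OB 7 were higher, the same genes with Sec23a and Sec31a added and Sec24b not passing, and Sec23b was again lower. In the sorted cells 5 were higher (Sec24d, Sar1a, Sar1b, Sec13 and Sec24c), Sec24b was lower and the remaining 4 did not pass. These counts have to be read against a background in which most genes were called, 69.6% of all genes tested in ESC-OB (38.6% higher and 31% lower), 71.5% in the sorted cells (39.1% and 32.4%) and 49.2% in iPSC-OB (26.1% and 23.1%). The 7 and 6 members called in the ESC comparisons are near or below that background. The 8 called in iPSC-OB are above it, also against the 60.7% called among genes with a base mean of at least 100. The median log2 change of the members was 0.52 in ESC-OB, 0.46 in the sorted cells and 0.86 in iPSC-OB, beside 0.26, 0.28 and 0.15 over all genes tested and 0.04, 0.05 and -0.07 over those with a base mean of at least 100. Centring on the median of all genes whose base mean reached 10 would lower the changes by 0.19, 0.21 and 0.06. Values given against genes of the same length had the median change of their exonic length decile subtracted, a setting added after seeing the data.

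**Figure D1:**
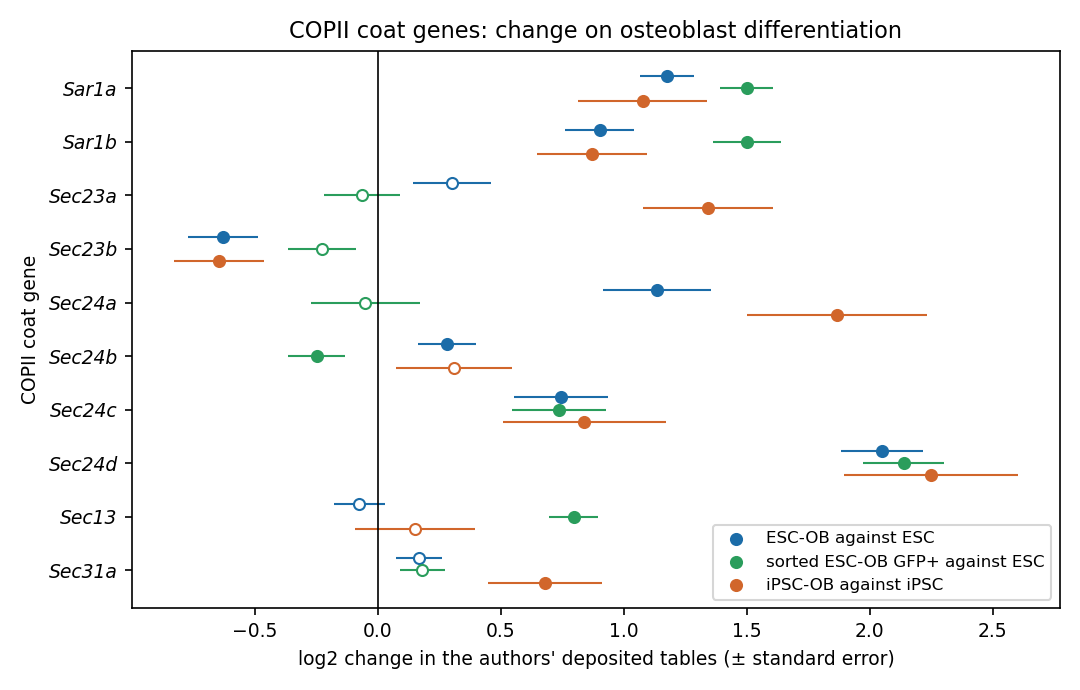
Log2 change of each coat gene in the authors' deposited tables (x axis, bars are ± 1 standard error), for ESC-OB, sorted ESC-OB GFP+ and iPSC-OB against their stem cells. Filled points passed an adjusted p of 0.05 and open points did not. Sec24d lies furthest right in all 3 comparisons and Sec23b lies left of 0 in each.

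The GTPases Sar1a and Sar1b, which start coat assembly, were higher in every comparison. Sar1a was higher by a log2 change of 1.18 ± 0.11 (SE) in ESC-OB in the authors' deposited table (2.26-fold, adjusted p = 4.94e-26). Its change was 1.499 ± 0.11 in the sorted cells (adjusted p = 1.62e-42) and 1.08 ± 0.26 in iPSC-OB (adjusted p = 1.67e-04) in the authors' deposited tables. Sar1b, the paralogue tied to chylomicron export, stood at 0.90 ± 0.14 in ESC-OB (adjusted p = 3.85e-10), 1.5 ± 0.14 in the sorted cells (adjusted p = 3.61e-27) and 0.87 ± 0.22 in iPSC-OB (adjusted p = 3.82e-04) in the authors' deposited tables. The paralogues were not separated by these data. Sar1b minus Sar1a was -0.27 ± 0.18 in ESC-OB (95% interval -0.62 to 0.07), 0.00 ± 0.17 in the sorted cells (-0.34 to 0.34) and -0.21 ± 0.35 in iPSC-OB (-0.88 to 0.47). Against genes of the same length the ESC-OB and iPSC-OB values turned to 0.17 (-0.18 to 0.51) and 0.06 (-0.62 to 0.74). These intervals treat the errors of both genes as independent, although they come from the same libraries, and no p was computed for them or for the other paralogue differences. On the level scale, Sar1a was at 35.8 CPM per kb in ESC, 86.9 in ESC-OB and 113 in the sorted cells, and at 34.7 and 81.7 in iPSC and iPSC-OB. Sar1a made up 54.5%, 59.2% and 54.5% of the summed Sar1 level in the ESC series and 61.9% and 65.2% in the iPSC series, so both genes supplied the RNA in each group.

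The Sec23 paralogues went different ways. Sec23b was lower by a log2 change of -0.63 ± 0.14 in ESC-OB (adjusted p = 1.93e-05) and of -0.64 ± 0.18 in iPSC-OB (adjusted p = 0.00136) in the authors' deposited tables. In the sorted cells its value was -0.23 ± 0.14 (adjusted p = 0.132) in the authors' deposited table, which did not pass, but it did when centred on the median gene (-0.44, adjusted p = 0.00281). Sec23a was higher in iPSC-OB by 1.34 ± 0.26 (2.54-fold, adjusted p = 2.07e-06) in the authors' deposited table. Its values of 0.30 ± 0.16 in ESC-OB (adjusted p = 0.0745) and -0.06 ± 0.16 in the sorted cells (adjusted p = 0.727) in the authors' deposited tables did not pass. Sec23a minus Sec23b was 0.93 ± 0.21 in ESC-OB (95% interval 0.52 to 1.35), 1.99 ± 0.32 in iPSC-OB (1.36 to 2.62) and 0.16 ± 0.21 in the sorted cells (-0.25 to 0.57). The interval thus excluded 0 in both unsorted cultures and included it in the sorted cells, though against genes of the same length the sorted value was 0.45 (0.04 to 0.86). Per length, Sec23a went from 44.2% of the Sec23 level in ESC to 60.2% in ESC-OB and 47.1% in the sorted cells, and from 29.9% in iPSC to 62.8% in iPSC-OB. The iPSC began with less Sec23a (17.3 CPM per kb, against 32.2 in ESC), and iPSC-OB and ESC-OB ended at 49.0 and 42.6. Such levels come from separately normalised tables and were not tested against each other. The summed Sec23 level was 72.8, 70.7 and 73.1 CPM per kb in ESC, ESC-OB and sorted cells, so within the ESC series the sum stayed within a narrow range while its makeup shifted, and it was 57.8 and 77.9 in iPSC and iPSC-OB.

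Sec24d, a cargo-binding subunit, had the largest change of the 10 genes in each comparison. Its log2 change was 2.05 ± 0.17 in ESC-OB (4.14-fold, adjusted p = 5.89e-34) in the authors' deposited table. In the sorted cells it was 2.14 ± 0.17 (4.4-fold, adjusted p = 2.62e-37), and in iPSC-OB 2.25 ± 0.35 (4.75-fold, adjusted p = 1.58e-09), in the authors' deposited tables. These changes exceeded those of 74.3%, 75.1% and 88.5% of all genes tested, so many other genes rose as far or further. Sec24c, which with Sec24d forms the other branch of the Sec24 family, was higher by 0.75 ± 0.19, 0.74 ± 0.19 and 0.84 ± 0.33 in ESC-OB, sorted cells and iPSC-OB in the authors' deposited tables (adjusted p = 1.82e-04, 1.96e-04 and 0.0247). Sec24a was higher in ESC-OB (1.13 ± 0.22, adjusted p = 6.70e-07) and in iPSC-OB (1.87 ± 0.37, adjusted p = 1.97e-06) in the authors' deposited tables, while its value in the sorted cells was -0.05 ± 0.22 (adjusted p = 0.850). Sec24b showed the smallest changes of the family in ESC-OB and iPSC-OB, and Sec24a in the sorted cells. Sec24b was higher by 0.28 ± 0.12 in ESC-OB (adjusted p = 0.0248), lower by -0.25 ± 0.12 in the sorted cells (adjusted p = 0.0471) and at 0.31 ± 0.24 in iPSC-OB (adjusted p = 0.280, not passed) in the authors' deposited tables. Both Sec24b calls lie close to the threshold and were lost at an adjusted p of 0.01 and against genes of the same length. Centred on the median gene, the ESC-OB call was lost (0.09), while the sorted call was kept by the normal test (-0.46, adjusted p = 1.64e-04).

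Sec24d rose further than each of its paralogues, except Sec24a in iPSC-OB. Sec24d minus Sec24b was 1.77 ± 0.20 in ESC-OB, 2.38 ± 0.20 in the sorted cells and 1.94 ± 0.42 in iPSC-OB, and Sec24d minus Sec24c was 1.30 ± 0.25, 1.40 ± 0.25 and 1.41 ± 0.48. All 6 of these 95% intervals lay above 0. Sec24d minus Sec24a was 0.92 ± 0.28 in ESC-OB (0.38 to 1.46) and 2.19 ± 0.28 in the sorted cells (1.65 to 2.73), but 0.38 ± 0.51 in iPSC-OB (-0.61 to 1.38), which does not separate both genes there. In ESC, Sec24d was at 10.8 CPM per kb, next to last of the 10 genes, and it reached 48.1 in ESC-OB and 53.2 in the sorted cells. In iPSC it was at 9.06, again next to last, and in iPSC-OB at 48.0. Its share of the summed Sec24 level went from 17.5% in ESC to 35.1% in ESC-OB and 41.6% in the sorted cells, and from 14.4% in iPSC to 30.3% in iPSC-OB. Sec24a and Sec24b are the longest members, and changes followed exonic length weakly in each comparison, in a direction that differed. Among genes with a base mean of at least 100, Spearman's rho with length was 0.12 in ESC-OB, -0.11 in the sorted cells and 0.16 in iPSC-OB. Shares in all of these groups may therefore carry a length trend. Against genes of the same length, the sorted minus unsorted difference of Sec24d was 0.03 ± 0.23. Sec24c held the largest share in 4 groups (45.1% in ESC, 36.5% in ESC-OB, 52.0% in iPSC and 41.2% in iPSC-OB), and in the sorted cells the Sec24d and Sec24c (40.5%) estimates were close, in an order that turned over in reads not divided by length (36.8% and 40.5%). The Sec24b share went from 23.9% to 14.0% and 10.8% along the ESC series and from 24.1% to 13.2% along the iPSC series. The summed Sec24 level went from 61.7 to 137 and 128 CPM per kb in the ESC series and from 62.8 to 158 in the iPSC series.

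**Figure D2:**
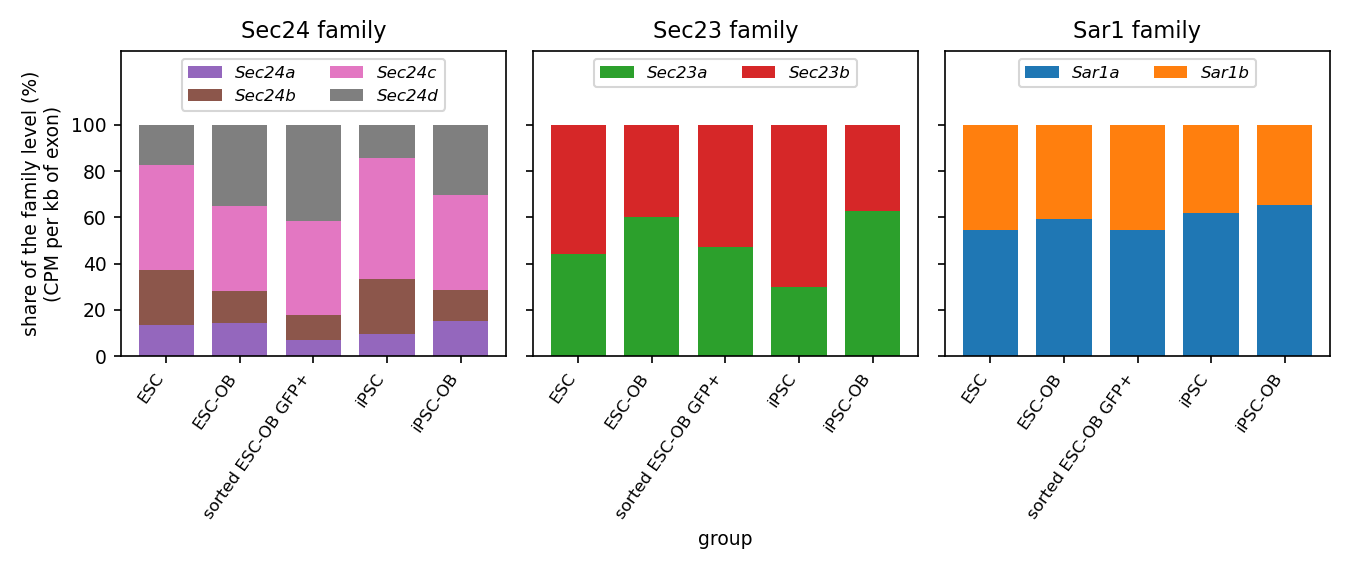
Share of each paralogue in its family's summed level (y axis, percent of CPM per kb of exon) in the 5 groups, for Sec24, Sec23 and Sar1. The shares are estimates from the authors' deposited tables and have no error bars. The Sec24d part grows from 17.5% in ESC to 35.1% in ESC-OB and from 14.4% in iPSC to 30.3% in iPSC-OB.

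The outer cage genes were the most abundant of the 10 in both stem cells and had the smallest changes in ESC-OB. Sec13, whose product also sits in the nuclear pore, was the highest of the 10 genes in ESC (84.7 CPM per kb), iPSC (72.6) and the sorted cells (164), and Sec31a followed it in ESC (65.5) and iPSC (50.3). In iPSC-OB the Sec13 (90.1) and Sec31a (89.9) estimates were close. Their order turned over if 3 iPSC libraries were taken (87.8 and 90.9). Sec13 stood at -0.07 ± 0.10 in ESC-OB (adjusted p = 0.524) and 0.15 ± 0.24 in iPSC-OB (adjusted p = 0.629) in the authors' deposited tables, neither of which passed. The direction of Sec13 in ESC-OB turned with the centring, to -0.26 against the median gene (adjusted p = 0.0161) and to 0.39 against genes of its length (adjusted p = 2.40e-04). In the sorted cells Sec13 was higher by 0.80 ± 0.10 (adjusted p = 7.85e-15) in the authors' deposited table. Sec31a passed in iPSC-OB (0.68 ± 0.23, adjusted p = 0.00904), with 0.17 ± 0.09 in ESC-OB (adjusted p = 0.100) and 0.18 ± 0.09 in the sorted cells (adjusted p = 0.0675) in the authors' deposited tables. The cage partners differed in the sorted cells, where Sec31a minus Sec13 was -0.61 ± 0.14 (95% interval -0.88 to -0.35), while it was 0.24 ± 0.14 in ESC-OB (-0.03 to 0.51) and 0.53 ± 0.34 in iPSC-OB (-0.13 to 1.19). Against genes of their own length these values were -0.35 in the sorted cells (-0.61 to -0.08), -0.39 in ESC-OB (-0.66 to -0.11) and 0.15 in iPSC-OB (-0.51 to 0.81), so the ESC-OB direction turned.

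**Figure D3:**
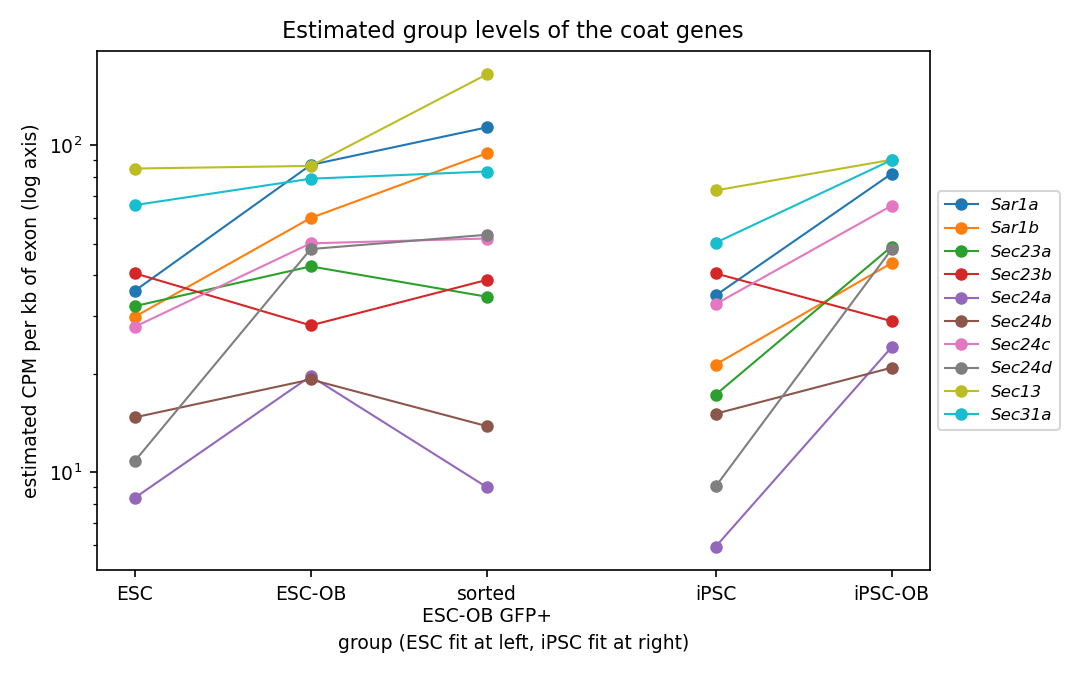
Estimated level of each coat gene (y axis, CPM per kb of exon, log axis) in the ESC series at left and the iPSC series at right, without error bars. Sec24d climbs from 10.8 to 48.1 between ESC and ESC-OB and from 9.06 to 48.0 between iPSC and iPSC-OB, and Sec23b goes down between the same groups.

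Whether the coat genes respond alike in both cell sources was tested as the iPSC-OB change minus the ESC-OB change, with the standard errors of the separate fits combined and p adjusted over all 18632 shared genes. Each source has its own line, passage range and fit, so cell source cannot be told apart from these. Sec23a was the only member called, with a difference of 1.04 ± 0.31 (2.06-fold, 95% interval 0.44 to 1.64, Benjamini-Hochberg adjusted p = 0.00406), beside 28.2% of all shared genes called in either direction (11% higher). With both changes centred on their median gene, Sec31a was also called, at 0.64 (adjusted p = 0.0387), against 0.51 ± 0.25 uncentred (adjusted p = 0.115). For Sec24d the difference was 0.20 ± 0.39 (-0.57 to 0.96), for Sec24a 0.73 ± 0.43 (-0.11 to 1.57) and for Sec23b -0.01 ± 0.23 (-0.47 to 0.44), so differences of these sizes were not resolved. The cargo behaved differently. Col1a1 and Col1a2, the chains of type I collagen, differed by -6.25 ± 0.56 and -9.84 ± 0.69 between the sources. Their deposited log2 changes were 7.87 and 11.73 in ESC-OB and 1.62 and 1.89 in iPSC-OB in the authors' deposited tables, and iPSC already held 349 and 267 CPM of them, against 10.3 and 0.669 in ESC. Sec24d levels in ESC and iPSC were close, at 43.3 and 36.3 CPM.

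The sorted and unsorted ESC cultures were compared as the GFP+ change minus the ESC-OB change. Both changes use the same ESC libraries, and the errors were combined as if independent. Of the 10 members 4 were called, beside 22.7% of all 19781 genes. Sec13 was higher in the sorted cells by 0.87 ± 0.14 (adjusted p = 3.71e-08) and Sar1b by 0.60 ± 0.20 (adjusted p = 0.0129), while Sec24a was lower by -1.18 ± 0.31 (adjusted p = 0.00122) and Sec24b by -0.53 ± 0.17 (adjusted p = 0.00846). Sec24d differed by only 0.09 ± 0.23 (-0.37 to 0.55). Sec13 and Sar1b are the shortest members, with 1353 and 1201 exonic bases, and Sec24a and Sec24b the longest, with 6706 and 5128. This difference followed length over the whole table. Among the 10716 genes that had a known exonic length and a base mean of 100 or more, its median went from 0.70 in the shortest length decile (median 1116 bases) to -0.9997 in the longest (median 9014 bases), and Spearman's rho with length was -0.58 across genes, which are not independent replicates. Among the 10 members rho was -0.94. Against genes of the same length decile none of the 10 was called by the normal test (0 at an unadjusted p under 0.05 as well). The differences then were 0.17 ± 0.14 for Sec13 (adjusted p = 0.586), -0.10 ± 0.20 for Sar1b (0.884), -0.58 ± 0.31 for Sec24a (0.250) and -0.20 ± 0.17 for Sec24b (0.559). If the errors are taken to correlate at 0.5, Sec24a alone passed (adjusted p = 0.0348). The iPSC-OB minus ESC-OB difference had a rho of only -0.05 with length, and the Sec23a difference centred by length was 1.06 ± 0.31 (adjusted p = 0.00319). The ESC-OB and iPSC-OB changes themselves had rhos of 0.12 and 0.16, of the same sign. The small rho of their difference thus does not show that either change is free of a length trend. The sorted cells are also the deepest libraries, the labels name a standard and an ultra-low-input library method without saying which samples had which, and sorting, depth and any difference in library method cannot be told apart.

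**Figure D4:**
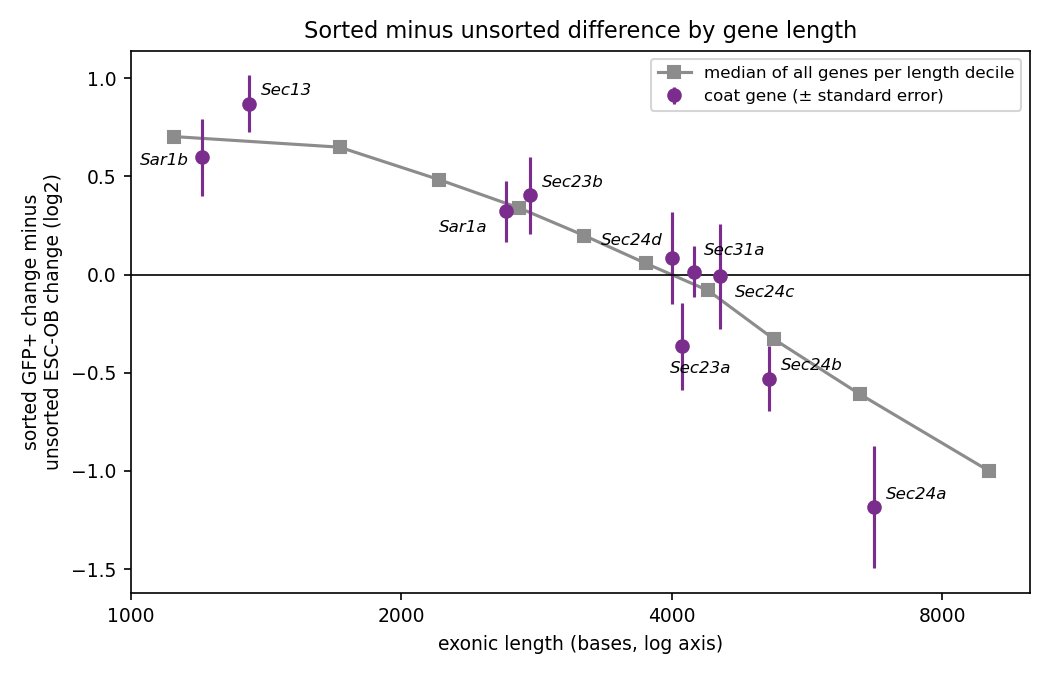
Sorted GFP+ change minus unsorted ESC-OB change (y axis, log2) against exonic length (x axis, bases, log axis). Grey squares are medians of all genes with a base mean of at least 100 per length decile, and purple points are the coat genes ± 1 standard error. The coat genes go down with length as the grey line does, from 0.87 for Sec13 to -1.18 for Sec24a, and Sec24a lies 0.58 below the median of its decile.

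Among the factors that start and organise the coat, calls were no more frequent than among all genes. Of 12 assembly partners, 7 were higher and 1 lower in ESC-OB, 7 higher and 1 lower in the sorted cells, and 4 higher and none lower in iPSC-OB, in the authors' deposited tables. Over all genes tested 69.6%, 71.5% and 49.2% were called in these comparisons. Preb (Sec12), the exchange factor that loads Sar1, was higher in ESC-OB (0.59 ± 0.12, adjusted p = 2.44e-06) and in the sorted cells (1.16 ± 0.12, adjusted p = 7.28e-22) in the authors' deposited tables. In iPSC-OB its value was nearly that of ESC-OB with a wider error (0.58 ± 0.33, adjusted p = 0.130) in the authors' deposited table. On the opposite strand Abhd1 overlaps 1169 of the 6300 exonic bases of Preb, so their reads could not be told apart without strand. Mia3, the receptor that couples procollagen to the coat, was higher by 1.95 ± 0.13, 0.98 ± 0.13 and 0.85 ± 0.29 in ESC-OB, sorted cells and iPSC-OB in the authors' deposited tables. Its change was smaller in iPSC-OB than in ESC-OB (difference -1.10 ± 0.32), and also smaller in the sorted cells than in ESC-OB (-0.97 ± 0.18). Against genes of the same length the sorted minus unsorted difference of Mia3 was -1.17. Its partner Ctage5 (Mia2) stood at -0.33 ± 0.15, -0.09 ± 0.14 and -0.36 ± 0.16, of which only the first passed (lower, adjusted p = 0.0344), in the authors' deposited tables. Sec16a, the scaffold of exit sites, was higher in ESC-OB (0.47 ± 0.18, adjusted p = 0.0132) in the authors' deposited table. It did not pass in the sorted cells (-0.22 ± 0.18) or in iPSC-OB (0.44 ± 0.32) in the authors' deposited tables. The minor paralogues Sec16b and Sec31b rose by larger folds from low levels, Sec16b from 0.280 CPM in ESC to 4.15 in ESC-OB and Sec31b from 1.58 to 5.64. Klhl12 and Cul3, the ubiquitin ligase that modifies Sec31a for large carriers, did not pass in ESC-OB or iPSC-OB, and Cul3 was lower in the sorted cells (-0.57 ± 0.11) in the authors' deposited table. Their calcium-binding co-adaptors Pef1 and Pdcd6 were higher in the sorted cells, Pef1 in both cultures too. Of the other partners Sec23ip was higher in ESC-OB (0.33 ± 0.13) and Tfg in the sorted cells (0.55 ± 0.11) in the authors' deposited tables. Sec23ip did not pass in the sorted cells (-0.27 ± 0.13) or iPSC-OB (0.51 ± 0.30), nor Tfg in ESC-OB (0.21 ± 0.11) or iPSC-OB (-0.05 ± 0.16), in the authors' deposited tables.

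Of 12 CREB3 family and stress regulators, 9 were higher and 2 lower in ESC-OB, 9 and 1 in the sorted cells, and 7 and 2 in iPSC-OB, in the authors' deposited tables. The shares called over all genes were 69.6%, 71.5% and 49.2%, and 81.1%, 84.1% and 60.7% at base means of 100 or more. Creb3l1 (OASIS), the family member best known from osteoblasts, was higher by 5.57 ± 0.25, 5.70 ± 0.25 and 3.93 ± 0.49, and Creb3l2, known as the regulator of Sec23a in cartilage, by 3.68 ± 0.29, 2.32 ± 0.29 and 3.61 ± 0.36, in the authors' deposited tables. Creb3l1 went from 2.77 to 141 CPM between ESC and ESC-OB and from 10.3 to 176 between iPSC and iPSC-OB. Creb3l2 was higher in all 3 comparisons, and Sec23a was called higher in iPSC-OB only. A link between these genes was not tested, and messenger RNA does not show how much of a factor is cleaved. Creb3 was higher by 3.32 ± 0.18, 4.23 ± 0.18 and 2.62 ± 0.38 in the authors' deposited tables, but 133 and 91 of its 1956 exonic bases overlap Gba2 and Tln1 on the opposite strand, so their reads could not be told apart without strand. Xbp1 and Atf6, factors of separate branches of the unfolded protein response, were higher in all 3 comparisons, Xbp1 by 1.43 ± 0.13 and Atf6 by 1.55 ± 0.22 in ESC-OB in the authors' deposited table, and Ddit3 was higher in each as well. Atf4 differed in sign between the sources, with 0.46 ± 0.16 in ESC-OB and -1.06 ± 0.19 in iPSC-OB in the authors' deposited tables (difference -1.52 ± 0.25). Of the proteases that release these factors in the Golgi, Mbtps1 did not pass in any comparison, while Mbtps2 was lower by -1.25 ± 0.14 in ESC-OB and -3.83 ± 0.15 in the sorted cells and at 0.18 ± 0.26 in iPSC-OB in the authors' deposited tables. Mbtps2 shares 36.1% of its exonic bases with Yy2 on the same strand, so its values are uncertain.

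**Figure D5:**
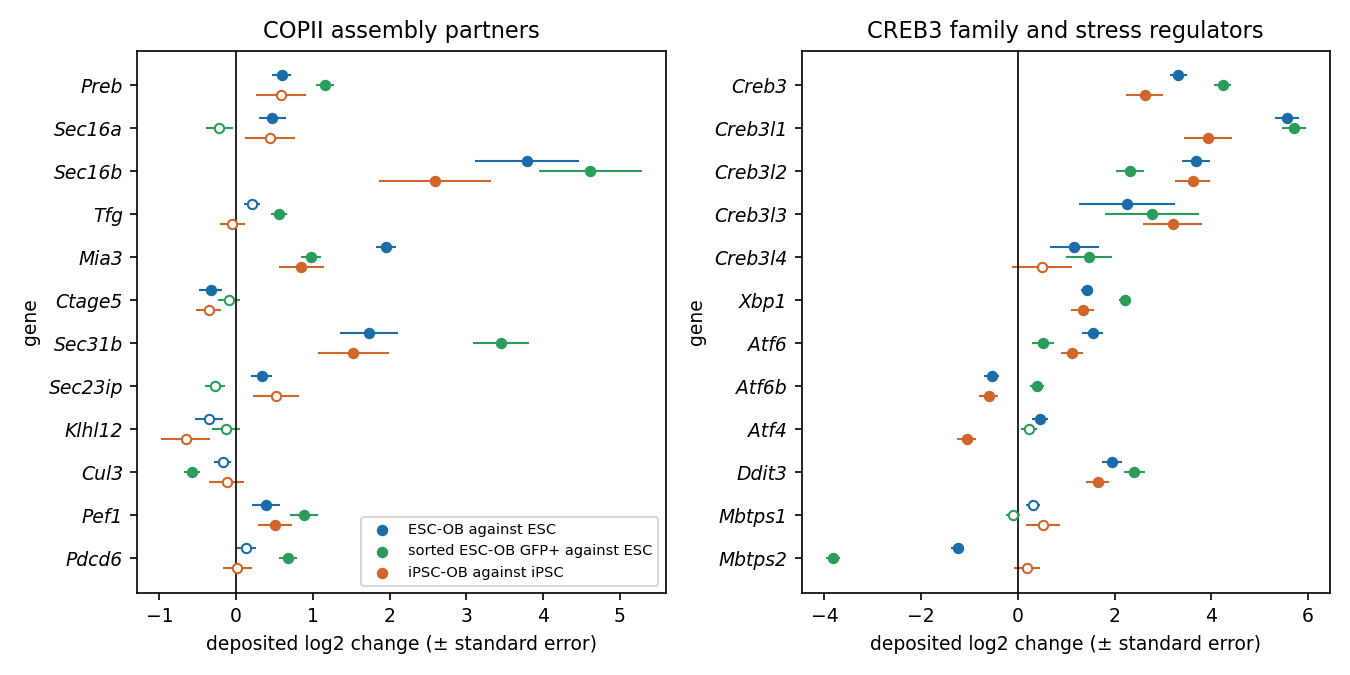
Log2 change in the authors' deposited tables (x axis, bars are ± 1 standard error) of 12 COPII assembly partners at left and 12 CREB3 family and stress regulators at right, in the same 3 comparisons. Filled points passed an adjusted p of 0.05. Creb3l1 reaches 5.57 and 5.70 in the ESC comparisons and 3.93 in iPSC-OB, and Mbtps2 lies at -3.83 in the sorted cells.

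Other steps of the early secretory pathway give the setting of the coat. Their counts are to be read beside the 69.6%, 71.5% and 49.2% of all genes called in ESC-OB, sorted cells and iPSC-OB, and the tethers and the COPI coat lie near the first of these in ESC-OB. Of 24 cargo receptors that cycle with COPII vesicles, 16 were higher and 4 lower in ESC-OB, 15 and 2 in the sorted cells, and 17 and none in iPSC-OB, with medians of 0.79, 0.74 and 0.97. Kdelr3, a retrieval receptor for chaperones, and Tmed3, a cargo receptor of the p24 family, led each comparison, Kdelr3 with 4.51 ± 0.20, 5.21 ± 0.20 and 4.48 ± 0.43 in the authors' deposited tables. Bcap31 had the largest fall in ESC-OB (-1.04 ± 0.10) in the authors' deposited table. Of 17 tethers and SNAREs, which catch and fuse the vesicles at the Golgi, 9 were higher and 3 lower in ESC-OB, 11 and 1 in the sorted cells, and 4 and 2 in iPSC-OB, with Golga2 (1.60 ± 0.11 in ESC-OB, 1.86 ± 0.43 in iPSC-OB) among the largest rises in the authors' deposited tables. The COPI coat, which carries vesicles back to the endoplasmic reticulum, had 7 higher and 1 lower of 11 in ESC-OB, 7 and 2 in the sorted cells, and 6 and none in iPSC-OB, led by Copz2 (2.98 ± 0.33, 3.99 ± 0.33 and 2.502 ± 0.31) in the authors' deposited tables. The clathrin and AP-1 coat had 2 higher and 4 lower of 8 in ESC-OB, 3 and 4 in the sorted cells, and 4 and none in iPSC-OB. In ESC-OB its largest falls were Ap1s2 (-2.08 ± 0.36) and Clta (-0.93 ± 0.11), and its rises Cltb (1.03 ± 0.25) and Ap1g1 (0.30 ± 0.13), in the authors' deposited table. Of 21 translocation genes, which bring proteins into the endoplasmic reticulum, 9 were higher and 9 lower in ESC-OB, 10 and 4 in the sorted cells, and 8 and 1 in iPSC-OB, Sec62 being the largest rise (1.63 ± 0.10) and Ssr2 the largest fall (-1.56 ± 0.12) in ESC-OB in the authors' deposited table. Medians in ESC-OB were 0.47 for COPI, 0.41 for the tethers, -0.27 for clathrin and 0.06 for translocation, beside 0.52 for the COPII coat and 0.26 for all genes. The order was different elsewhere. In the sorted cells the medians were 0.39, 0.88, -0.42 and 0.28, beside 0.46 for the COPII coat, and in iPSC-OB 0.83, 0.40, 0.66 and 0.48, beside 0.86. The letters TGACGTGG were found in the windows of 4 of 10 COPI genes with a RefSeq promoter (Copb1, Copb2, Arf1 and Gbf1), of Kdelr3, Stx5a, Scfd1 and Sec16b in their lists, and of no gene of the CREB3, clathrin or translocation lists. Of all 27025 gene symbols with a window, 193 had these letters.

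The genes whose changes lay nearest to those of Sec24d over the 3 comparisons, among 9817 genes with a base mean of at least 100 in both fits, were Frmd4b, Abhd6, Dnajc1, Dynlt3 and Lgals8, at Euclidean distances of 0.14 to 0.27 on the log2 scale. Frmd4b, the nearest, had deposited log2 changes of 2.13, 2.22 and 2.17 in the authors' deposited tables. For Sec23a they were Npc2, Zfp790, Lrig2, Lmbr1 and Pik3r3, at 0.11 to 0.15, with Npc2 at 0.31, -0.13 and 1.26 in the authors' deposited tables. No other coat gene was among the 5 nearest of either. Sec24a and Sar1b are neighbours on chromosome 11 in RefSeq, on opposite strands and with no annotated gene between them. Both were higher in ESC-OB and iPSC-OB, and in the sorted cells Sar1b was higher (1.5) while Sec24a was at -0.05 in the authors' deposited table. Reads of 2 members could include those of opposite-strand transcripts, since 66 of 4109 exonic bases of Sec23a and 214 of 4530 of Sec24c overlap an annotated antisense gene in GENCODE M21.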

How the data were processed

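Messenger RNA was sequenced, and 3 comparison tables made by the authors were used. The submitters' processing notes name STAR 2.4.2a, DESeq2, R 3.2.2 and mm9, with no roles given. Per the file headers, the authors deposited for each gene a base mean (a signal: the mean of normalised counts), a log2 fold change, the standard error of that log2 value, a score (the test statistic), and a p-value with its adjusted p-value. No table holds values per sample (0 such columns), so no count test could be run. Nothing says whether replicates were separate cultures, so p-values measure only the spread between these samples, which may be technical. Base means were identical in both ESC tables, which therefore share 1 fit and its ESC libraries.

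From these values, differences between changes were computed with Python 3.11.15, numpy 2.4.6, pandas 2.3.3 and scipy 1.17.1 (two-sided normal test, Benjamini-Hochberg over all shared genes). Group levels were estimated from base means and folds, without Rn45s, and divided by the exonic length in GENCODE M21 (GRCm38). Depth was taken from base means below 0.75, which are whole multiples of the value of 1 read per library: all 1726 and 1108 such values were explained, within 3e-07, by 9 and 5 libraries. The code was checked on simulated data. Promoter windows are from RefSeq (GRCm38.p6). The coat members, the gene lists and the motifs were chosen with earlier results of these data known. Named in the text are the 10 members, 2 short lists, Col1a1 and Col1a2, up to 2 rises and 2 falls (base mean of at least 10) of the longer lists and the 5 genes nearest to Sec23a and Sec24d. Alternatives changed the threshold, the adjustment, the base mean filter, the centring, the assumed error correlation and the libraries and lengths behind levels.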

Additional observations from a re-analysis of the deposited data

Results flagged for a closer look

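Sec23a was singled out because its change differed between the cell sources: iPSC-OB minus ESC-OB was 1.04 on the log2 scale by the test of the difference itself (adjusted p = 0.00406). Cell source, line and passage cannot be told apart here. The difference between the sorted and the unsorted ESC change was called for Sar1b (0.60), Sec13 (0.87), Sec24a (-1.18) and Sec24b (-0.53). These 4 run in the direction of the length trend of the whole table. Against genes of the same length none was called with errors taken as independent, and Sec24a (-0.58) was called with an error correlation of 0.5 (adjusted p = 0.0348), the ESC libraries being shared. No sample could be examined for standing apart from its group, since the tables hold no values per sample.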

How the results depend on the processing

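Counts of called members changed by over 1.5 times in these cases. With Bonferroni adjustment 4 members were called in ESC-OB (7 as reported) and 3 in iPSC-OB (8). Centring on the median gene gave 2 calls for iPSC-OB minus ESC-OB (1), and length centring gave 0 for sorted minus unsorted (4; error correlation of 0.5 gave 6, and both together gave 1, Sec24a). Median member changes centred on the median gene were 0.33 in ESC-OB and 0.25 in the sorted cells. Centred by length, Sar1b minus Sar1a in ESC-OB was 0.17, Sec24d minus Sec24b 1.996 in ESC-OB and 2.17 in the sorted cells, Sec23a minus Sec23b 0.45 and Sec24d minus Sec24a 1.83 in the sorted cells. Length centring also turned Sar1b in sorted minus unsorted to -0.10, and Sec13 in ESC-OB to 0.39 (adjusted p = 2.40e-04) from -0.07. The causes were not tested. Shares of reads not divided by length differ by construction: Sec23a 54.0% (ESC), 69.1% (ESC-OB), 56.8% (sorted) and 38.7% (iPSC), Sec24d 14.4%, 29.6% and 36.8% (ESC, ESC-OB, sorted), and Sar1a 72.3%, 76.0%, 72.3%, 78.0% and 80.3% (all 5 groups). Sec24b lost its call in ESC-OB when centred on the median gene (0.09) and in the sorted cells when every deposited p was adjusted (0.05004). No paired analysis was possible because the tables hold no values per sample, and leaving out replicates was not run for the same reason.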
